A study of Mus musculus with 9 samples.

Results

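Cell cycle and DNA replication genes were followed in leukocytes from treated sarcoma grafts. The set held 45 genes chosen by symbol, of the 45777 named genes in the read count table, and was read as 21 S phase genes and 24 mitotic genes. WEHI-164, a mouse sarcoma cell line, was grafted under the skin of BALB/c mice, and tumor-infiltrating CD45+ cells were sorted with magnetic beads for RNA sequencing. The groups were doxorubicin + ADU-S100 (the combination), doxorubicin alone, and control vehicle, with 3 libraries each. Doxorubicin, a DNA-damaging drug that poisons topoisomerase II, was given at 5 mg/kg, and ADU-S100, a cyclic dinucleotide made to switch on STING, at 25 μg, both injected into the tumor. All groups carried the same unedited graft of a single cell line and came from the same mouse strain. There was no group with ADU-S100 alone, the age and sex of the mice are not given in the sources used here, and the study describes the libraries of a group as biological triplicates without tying a library to a single mouse. P-values measure the spread between these libraries. Except in the model of 2 groups, that spread is pooled for each gene over all 3 groups.

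A dividing cell first commits to S phase, when cyclin E with CDK2 and the E2F factors switch on the genes for loading the MCM helicase, building nucleotides and copying DNA. Later, cyclin A and cyclin B with CDK1 drive the cell into mitosis, and the FOXM1 and B-MYB factors raise the genes for the spindle, the kinetochore and the checkpoint. The RNA of these genes is abundant in cycling cells and low in resting ones, so in a bulk sample it follows how many cells are cycling. In tumor leukocytes, cycling cells include expanding lymphocytes and macrophages, and any sarcoma cells left by the sort add their own.

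The promoters of the 2 classes are shown first, because E2F sites and the CHR element (cell cycle genes homology region) are the letters by which S phase and mitotic genes are textbook examples of separate control. Windows of 120 bases before an annotated start were read from RefSeq on GRCm38.p6, in the direction of the gene. For E2f8 and Mki67 that start lies inside the annotated gene. On the minus strand these genes begin at 48882073 and 135716450. Capitals mark an E2F site (TTTCCCGC, TTTGGCGC or TTTCGCGC), a CHR element (TTTGAA) or a CCAAT box (CCAAT), each searched on both strands, so that ATTGG is a CCAAT box on the other strand. Mcm6 (chr1:128359706-128359825, minus strand) and E2f8 (chr7:48881597-48881716, minus strand) are S phase genes, and Mki67 (chr7:135716380-135716499, minus strand), Cdk1 (chr10:69352913-69353032, minus strand) and Cdc20 (chr4:118437344-118437463, minus strand) are mitotic genes.
Mcm6: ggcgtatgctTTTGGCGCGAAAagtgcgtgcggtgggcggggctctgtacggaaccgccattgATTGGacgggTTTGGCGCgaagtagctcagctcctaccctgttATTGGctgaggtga
E2f8: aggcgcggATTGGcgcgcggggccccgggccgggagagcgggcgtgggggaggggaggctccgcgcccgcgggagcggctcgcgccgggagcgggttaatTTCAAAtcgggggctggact
Mki67: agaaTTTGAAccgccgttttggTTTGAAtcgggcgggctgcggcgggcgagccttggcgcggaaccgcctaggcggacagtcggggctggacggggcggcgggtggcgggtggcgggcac
Cdk1: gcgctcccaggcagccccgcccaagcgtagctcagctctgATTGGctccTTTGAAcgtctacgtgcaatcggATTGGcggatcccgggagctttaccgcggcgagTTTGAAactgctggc
Cdc20: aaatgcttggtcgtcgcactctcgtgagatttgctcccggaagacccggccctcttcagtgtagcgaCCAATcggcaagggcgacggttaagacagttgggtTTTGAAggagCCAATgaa

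Of the 45 genes, 37 matched the promoter table by symbol. Aurkb, Ccna2, Ccne2, Foxm1, Gins2, Kif20a, Mcm4 and Tpx2 did not. In the 250 bases before the start, an E2F site was present in 6 of 18 S phase genes (33.3%) and 1 of 19 mitotic genes (5.26%), against 3.24% of 11622 tested genes with a promoter. The S phase genes with an E2F site were Cdc6, Cdk2, Mcm5, Mcm6, Mcm7 and Uhrf1, and the mitotic gene was Cdk1. In Mcm6, the first stretch of capitals held 2 E2F matches that overlap on opposite strands. A CHR element was present in 7 of 19 mitotic genes (36.8%) and 3 of 18 S phase genes (16.7%), against 13.9% of tested genes. A CCAAT box was present in 15 of 19 mitotic genes (78.9%) and 12 of 18 S phase genes (66.7%), against 40.4% of tested genes. The matches are exact letters in these windows and are given as a description.

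All 45 genes passed the filter on low counts, among 16373 genes tested. Total counts were 50110494 to 69456603 per library, and the 45 genes together took 0.163% to 0.381% of them. Both extremes were libraries of the combination group, at 0.163% in replicate 1 and 0.381% in replicate 3. Per kilobase of transcript, Pcna, the sliding clamp of the replication fork, had the highest level of the 45 genes, with 175 CPM per kb (CPM, counts scaled to the size of the library) as the mean of the 9 libraries. Cks2, a small subunit of cyclin-dependent kinases, came next at 43.3 CPM per kb, and Cenpf, a kinetochore protein, was lowest at 2.16 CPM per kb.

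The first comparison asked what the combination changed relative to control vehicle. No member passed the thresholds the study used, which ask for more than a 2-fold difference and p under 0.05 before adjustment, and no member passed an adjusted p under 0.05 in edgeR's quasi-likelihood test with Benjamini-Hochberg adjustment over all genes tested. Across all genes, 2.17% passed the study thresholds and 0% the adjusted p. At an unadjusted p under 0.05 the test called 1 of 45 members, E2f8, against 4.44% of all genes. The lowest adjusted p among the members was 0.948, and DESeq2 and limma-voom also called 0 members at an adjusted p under 0.05, with 2 and 23 members at an unadjusted p under 0.05. Those counts stand against 5.45% of all genes in DESeq2 and 10.7% in limma-voom. Fold changes were mostly negative and small. They were negative for 17 of 21 S phase genes with a median log2 fold change of -0.21 and for 23 of 24 mitotic genes with a median of -0.30, while the median of all genes tested was 0.06. In bulk RNA, fewer cycling cells and less RNA of these genes per cell cannot be told apart.

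E2f8, an atypical E2F factor that represses E2F target genes, was the member with the smallest p. Its level was 18.3, 19.3 and 21.3 CPM in combination libraries, 20.4, 25.6 and 20.9 CPM in doxorubicin libraries, and 36.1, 24.9 and 35.0 CPM in control libraries. All 3 combination libraries were below all 3 control libraries. The log2 fold change was -0.71 ± 0.20 (SE, unadjusted p = 0.0057) for the combination versus control and -0.52 ± 0.20 (unadjusted p = 0.025) for doxorubicin versus control. The adjusted p was 0.948 in the combination comparison by edgeR and 1 in the doxorubicin comparison by edgeR, so neither difference stood after correction over all genes. In the doxorubicin comparison its unadjusted p ranged from 0.0089 to 0.093 when single libraries were left out. Between combination and doxorubicin libraries the E2f8 difference was -0.18 ± 0.20 on the log2 scale.

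Mki67, which coats mitotic chromosomes and is the usual mark of cycling cells, was the other member whose groups did not overlap. It was at 99.3, 115 and 166 CPM in combination libraries, 176, 95.9 and 75.9 CPM in doxorubicin libraries, and 221, 175 and 183 CPM in control libraries. The log2 fold change was -0.61 ± 0.33 (unadjusted p = 0.094) for the combination versus control. Over all genes, 3.95% had every combination library below every control library, so 2 of 45 members is close to that background. Top2a, the target of doxorubicin and a gene of late S phase and mitosis outside the set, was at 116, 123 and 308 CPM in combination libraries and 249.7, 260.0 and 162 CPM in control libraries, and these groups overlapped (log2 fold change -0.29 ± 0.39).

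**Figure D1:**
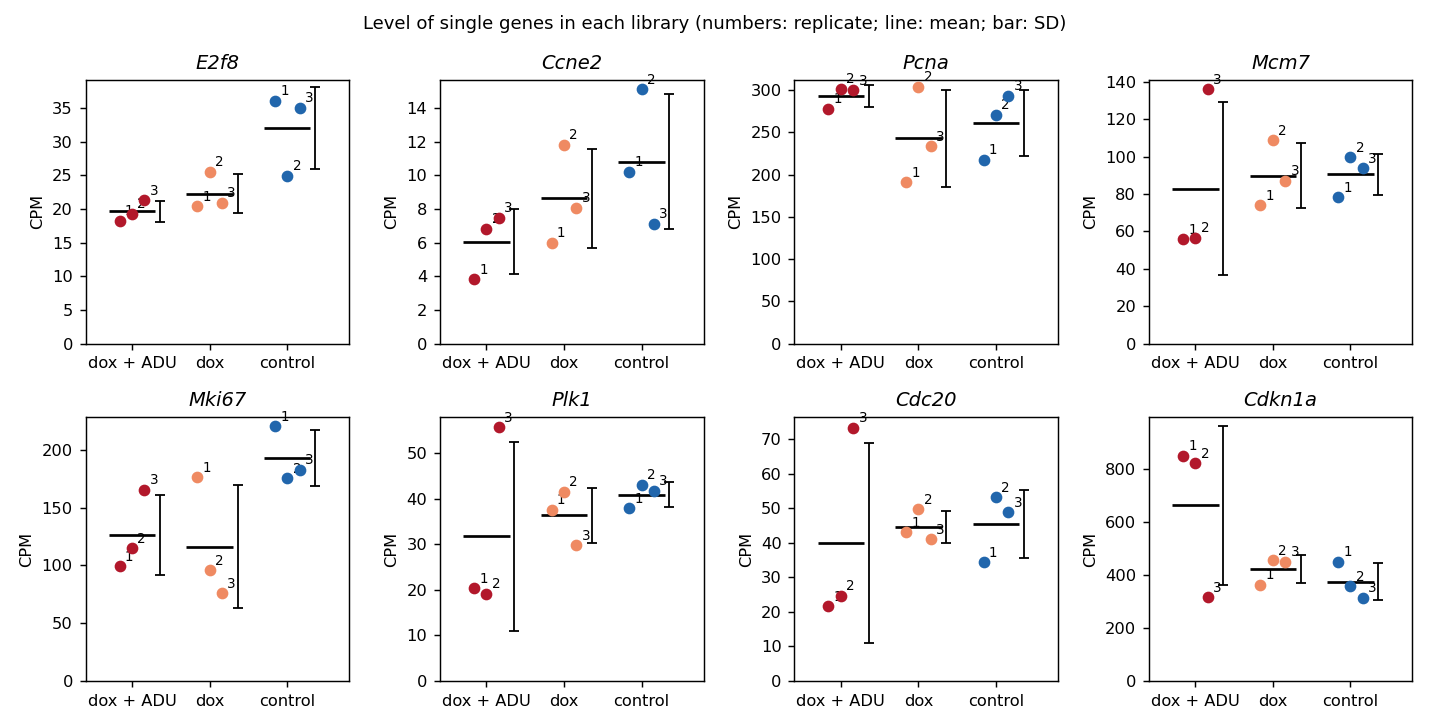
CPM (linear axis from 0) of 8 genes in each library, with doxorubicin + ADU-S100 (red), doxorubicin (orange) and control (blue) from left to right. Numbers mark the replicate, the line is the group mean and the bar the SD of 3 libraries. E2f8 is low in all 3 combination libraries, whereas Plk1 and Cdc20 are at 20.4 and 21.7 CPM in combination replicate 1 and at 55.7 and 73.3 CPM in combination replicate 3.

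The 3 combination libraries differed from each other across most members. Combination replicates 1 and 2 held low levels of most members, and combination replicate 3 held high levels, as the map of levels relative to the control mean shows. For 36 of 45 members, replicates 1 and 2 were both below all control libraries, against 14.3% of all genes, and this held for 14 of 21 S phase genes and 22 of 24 mitotic genes. For 25 of 45 members these were the 2 lowest of the 9 libraries (6.49% of all genes). Replicate 3 was above both replicates 1 and 2 for 42 of 45 members (38.4% of all genes). It was the highest of the 9 libraries for 29 of 45 members, 10 of 21 S phase and 19 of 24 mitotic, against 23.8% of all genes. These counts describe libraries singled out after their values were seen, and no test goes with them.

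**Figure D2:**
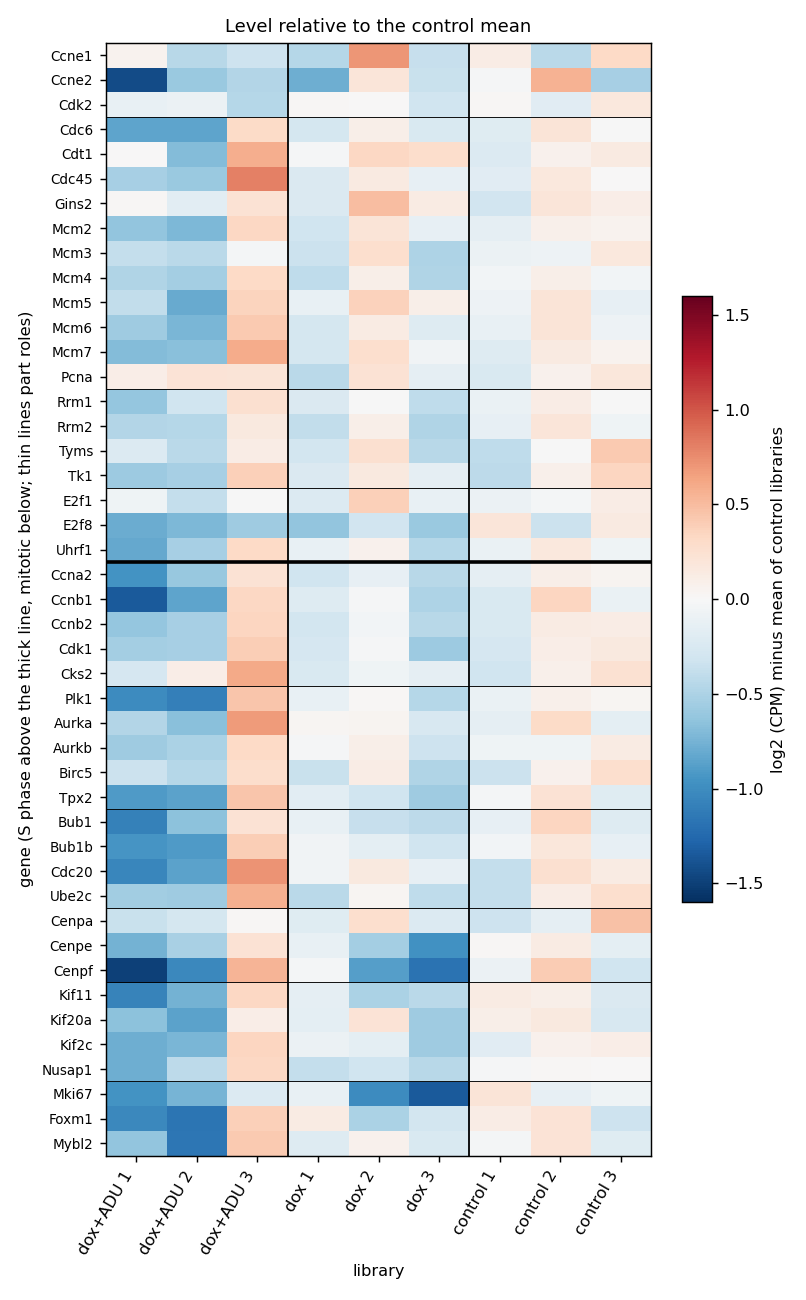
Level of each of the 45 genes (rows, S phase above the thick line and mitotic below) in each of the 9 libraries (columns), as log2 CPM minus the mean log2 CPM of the 3 control libraries, blue below and red above. Combination replicates 1 and 2 are below every control library for 36 of 45 genes, and combination replicate 3 is above both of them for 42 of 45 genes.

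The gap within the group was wider for mitotic genes than for S phase genes in these libraries. The level in combination replicate 3 divided by the mean of replicates 1 and 2 had a median of 2.13 over mitotic genes, 1.65 over S phase genes and 0.947 over all genes tested. Among kinases, Plk1, which drives entry into mitosis, was at 20.4, 19.2 and 55.7 CPM in combination libraries, against 37.7, 41.6 and 29.9 CPM in doxorubicin and 37.9, 43.1 and 41.8 CPM in control libraries. Cdc20, the activator of the anaphase-promoting complex, was at 21.7, 24.6 and 73.3 CPM in combination libraries, against 43.1, 49.7 and 41.0 CPM in doxorubicin and 34.4, 53.2 and 48.9 CPM in control libraries. For both genes the first pair of combination libraries lay below all other libraries and replicate 3 above them. Cdc20 was chosen for display after its values were seen.

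The mean log2 CPM over the 24 mitotic genes was 4.94, 5.04 and 6.09 in combination libraries, 5.57, 5.57 and 5.24 in doxorubicin libraries, and 5.61, 5.87 and 5.72 in control libraries. As group means this was 5.35 ± 0.64 in combination, 5.46 ± 0.19 in doxorubicin and 5.73 ± 0.13 in control libraries (SD, n = 3 each). The mean over the 21 S phase genes was 5.26, 5.21 and 5.87 in combination libraries, 5.41, 5.90 and 5.46 in doxorubicin libraries, and 5.57, 5.78 and 5.77 in control libraries, or 5.45 ± 0.37, 5.59 ± 0.27 and 5.71 ± 0.11 as group means in that order. The spread of the combination group exceeded its distance from control for both classes. The mitotic mean minus the S phase mean was -0.32, -0.17 and 0.21 in combination libraries, 0.16, -0.34 and -0.22 in doxorubicin libraries, and 0.04, 0.09 and -0.05 in control libraries. Mitotic genes were thus low relative to S phase genes in combination replicates 1 and 2 and in doxorubicin replicates 2 and 3.

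**Figure D3:**
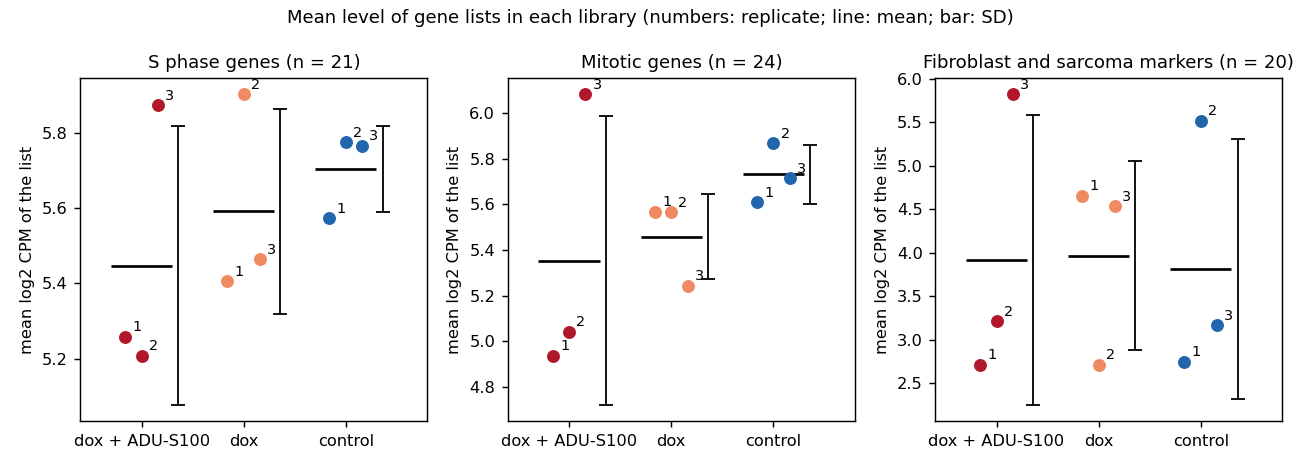
Mean log2 CPM (prior count 2) of the 21 S phase genes, the 24 mitotic genes and 20 fibroblast and sarcoma markers in each library, by group, with doxorubicin + ADU-S100 at the left. Numbers mark the replicate, lines the group mean and bars the SD of 3 libraries; the vertical axes do not start at 0 and differ between panels. Combination replicate 3 has the highest mean for mitotic genes (6.09) and for the fibroblast and sarcoma markers (5.82).

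Markers of other cells also differed between these libraries. The 20 fibroblast and sarcoma markers were all measured, and their mean log2 CPM was 2.71, 3.22 and 5.82 in combination libraries, 4.65, 2.72 and 4.54 in doxorubicin libraries, and 2.75, 5.52 and 3.17 in control libraries. Col1a1, a collagen chain of mesenchymal cells, was at 10.5, 27.4 and 135 CPM in combination libraries, 109, 17.7 and 44.0 CPM in doxorubicin libraries, and 23.9, 188 and 19.6 CPM in control libraries. Ptprc, which encodes CD45, was at 361, 627 and 189 CPM in combination libraries, 383, 359.6 and 409 CPM in doxorubicin libraries, and 551, 303 and 376 CPM in control libraries. The library with the highest mitotic mean therefore had the lowest Ptprc and the highest mean of fibroblast and sarcoma markers. Not every marker followed that mean. Fn1 was lowest of all libraries there, at 2362 CPM, and Acta2 and Tagln were below combination replicates 1 and 2. Doxorubicin replicate 2, with the highest S phase mean (5.90), had a marker mean of only 2.72. Control replicate 2 was also rich in these markers and had the highest mitotic mean of the control libraries, whereas doxorubicin replicate 3 was rich in them and had the lowest mitotic mean of the doxorubicin libraries. The mean of 12 T cell markers was -0.96, 1.94 and 0.57 in combination libraries, -0.55, 1.63 and 3.13 in doxorubicin libraries, and 0.91, -1.06 and 0.24 in control libraries. The mean of 10 macrophage and monocyte markers was 9.26, 9.80 and 8.70 in combination libraries, 9.50, 9.82 and 9.31 in doxorubicin libraries, and 9.58, 9.01 and 9.41 in control libraries, lowest in combination replicate 3. Mitochondrially encoded RNA took 13.1%, 3.48% and 1.96% of the counts in combination libraries, and 1.26% to 7.59% in the other 6 libraries. The part of these in the cell cycle levels was not tested. With the fibroblast marker mean as a covariate, an alternative added after the data were seen, the median log2 fold change of the combination versus control was -0.24 for S phase and -0.41 for mitotic genes, and 0 members passed the study thresholds.

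Without combination replicate 3 the picture of the combination versus control was different. Fold changes were then negative for 44 of 45 members, with a median log2 fold change of -0.51 for S phase and -0.77 for mitotic genes, against -0.01 for all genes tested. In that fit 5 members were lower past the study thresholds, against 2.2% of all genes, and 33 of 45 had an unadjusted p under 0.05, against 11.5% of all genes. No member passed an adjusted p under 0.05 by edgeR, with a lowest adjusted p of 0.137 for Plk1. Since that library was singled out for its values, these numbers describe what the other 2 combination libraries held. Without combination replicate 1 or 2 instead, 37 and 34 of 45 members were negative.

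The 5 members lower in that fit were 1 S phase gene and 4 mitotic genes. Ccne2, the cyclin E2 partner of CDK2, had a log2 fold change of -1.02 ± 0.43 without the library and -0.84 ± 0.39 with it. Ccnb1, the main mitotic cyclin, was at 22.2, 31.5 and 71.0 CPM in combination, 48.8, 55.7 and 40.1 CPM in doxorubicin, and 47.7, 71.5 and 52.5 CPM in control libraries. Its log2 fold change was -1.09 ± 0.26 without combination replicate 3 and -0.46 ± 0.39 with it. Plk1 had -1.05 ± 0.19 without it and -0.37 ± 0.38 with it. Foxm1, the transcription factor of the mitotic program, had -1.12 ± 0.25 without it and -0.44 ± 0.40 with it. Cenpf had -1.27 ± 0.38 without it and -0.41 ± 0.52 with it. Pcna alone among the 45 members had a positive value in that fit, at 0.15 ± 0.24.

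**Figure D4:**
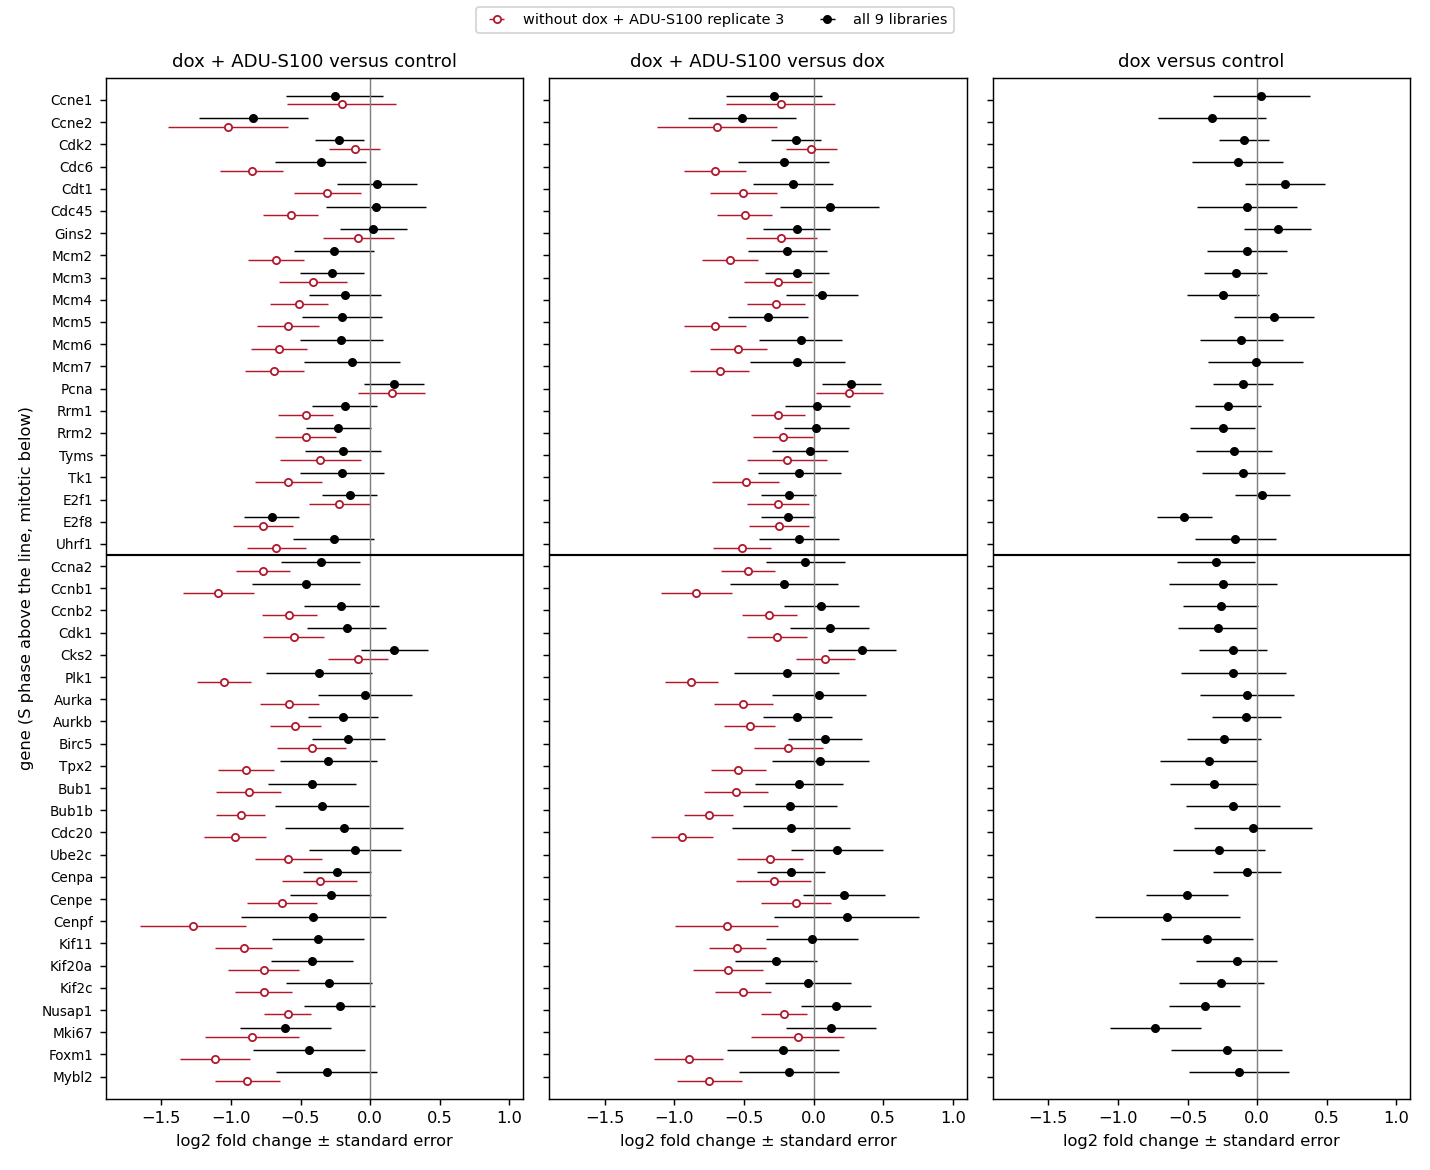
Log2 fold change with its standard error (horizontal axis) of each of the 45 genes (vertical axis, S phase above the line and mitotic below) in the 3 comparisons, from all 9 libraries (black) and, where doxorubicin + ADU-S100 was compared, without its replicate 3 (open red). Against control, 40 of 45 genes are below 0 with all libraries and 44 of 45 without replicate 3.

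Within S phase, the helicase genes showed the same split as most mitotic genes. Mcm2 to Mcm7 encode the 6 subunits of the replicative helicase. Mcm2 was at 53.8, 50.5 and 104 CPM in combination, 66.3, 95.7 and 75.7 CPM in doxorubicin, and 75.4, 88.3 and 86.2 CPM in control libraries. Mcm3 was at 84.3, 81.5 and 107 CPM in combination, 86.5, 132 and 78.2 CPM in doxorubicin, and 103, 104 and 124 CPM in control libraries. Mcm4 was at 60.2, 57.6 and 104 CPM in combination, 63.5, 89.4 and 60.1 CPM in doxorubicin, and 81.4, 89.5 and 81.3 CPM in control libraries. In these 3 genes the first 2 combination libraries were below all control libraries, and replicate 3 was within or above them.

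Mcm5 was at 75.0, 56.5 and 126 CPM in combination, 90.3, 127 and 105 CPM in doxorubicin, and 92.8, 114 and 90.1 CPM in control libraries. Mcm6 was at 76.5, 68.1 and 151 CPM in combination, 93.5, 124 and 97.8 CPM in doxorubicin, and 104, 131 and 107 CPM in control libraries. Mcm7 was at 55.9, 56.5 and 136 CPM in combination, 73.9, 109 and 87.0 CPM in doxorubicin, and 78.3, 99.7 and 93.6 CPM in control libraries. The log2 fold changes of the 6 helicase genes in the combination versus control ranged from -0.27 ± 0.23 for Mcm3 to -0.13 ± 0.34 for Mcm7 over all 9 libraries, and no helicase gene reached an unadjusted p under 0.05 in any of the 3 comparisons. Cdc6 and Cdt1, which load the helicase, and Cdc45 and Gins2, which complete it, had log2 fold changes of -0.36 ± 0.33, 0.05 ± 0.29, 0.04 ± 0.36 and 0.02 ± 0.24.

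Pcna did not show that split, and neither did Ccne1 and Cdk2. The level in combination replicate 3 divided by the mean of replicates 1 and 2 was 1.03 for Pcna, 0.899 for Ccne1 and 0.782 for Cdk2. Pcna was at 278, 302 and 299.8 CPM in combination, 191, 304 and 233 CPM in doxorubicin, and 218, 271 and 294 CPM in control libraries. Combination replicates 1 and 2 were thus not low for Pcna, and the groups overlapped (log2 fold change 0.17 ± 0.21 for the combination versus control). Pcna is known both as a replication factor and as a target of p53. Cdkn1a, which encodes the CDK inhibitor p21 and is a known p53 target outside the set, was at 850.5, 822 and 316 CPM in combination, 363, 456 and 450.3 CPM in doxorubicin, and 449.8, 359 and 314 CPM in control libraries. Its 2 highest libraries were combination replicates 1 and 2, and combination replicate 3 lay at the level of the other groups. A part of p53 in these levels was not tested. The log2 fold change of Cdkn1a in the combination versus control was 0.83 ± 0.35 (unadjusted p = 0.044 and adjusted p = 0.948 by edgeR).

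The other S phase roles gave small differences. Cdk2, the kinase partner of cyclin E, was at 41.3, 42.1 and 32.6 CPM in combination and 45.4, 39.4 and 50.3 CPM in control libraries (log2 fold change -0.22 ± 0.18). Ccne2 was at 3.84, 6.82 and 7.47 CPM in combination, 6.00, 11.8 and 8.08 CPM in doxorubicin, and 10.2, 15.1 and 7.12 CPM in control libraries. The nucleotide supply genes had log2 fold changes from -0.23 to -0.18 in the combination versus control, among them Rrm1 (-0.18 ± 0.24) and Rrm2 (-0.23 ± 0.23), the 2 subunits of ribonucleotide reductase, Tyms (-0.20 ± 0.27), thymidylate synthase, and Tk1 (-0.20 ± 0.30), thymidine kinase. E2f1, an activating E2F factor, was at 40.3, 32.6 and 42.4 CPM in combination and 39.9, 41.5 and 46.1 CPM in control libraries, and Uhrf1, which carries DNA methylation through replication, had a log2 fold change of -0.26 ± 0.29. E2f8 stood apart from E2f1 in that its combination libraries were close to each other, with 19.6 ± 1.54 CPM (SD, n = 3) against 32.0 ± 6.16 CPM in control libraries (SD, n = 3).

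By mitotic role, cyclin and CDK1 genes had a median log2 fold change of -0.21 in the combination versus control, mitotic kinases and their partners -0.19, checkpoint and exit genes -0.27, kinetochore genes -0.28, spindle genes -0.34, and Mki67 with Foxm1 and Mybl2 -0.44. Cks2 was the single mitotic gene above 0 (0.17 ± 0.24), at 24.5, 31.6 and 44.8 CPM in combination and 23.5, 31.2 and 34.7 CPM in control libraries. Ccna2, the cyclin of late S phase and early mitosis, was at 69.3, 88.3 and 157 CPM in combination and 121, 144 and 138 CPM in control libraries. Bub1, a kinase of the spindle checkpoint, was at 23.4, 31.3 and 57.6 CPM in combination and 45.0, 62.4 and 42.7 CPM in control libraries. For both genes combination replicates 1 and 2 were below all control libraries. Its partner Bub1b was at 29.2, 30.02 and 73.9 CPM in combination and 54.4, 63.6 and 51.1 CPM in control libraries. Tpx2, which activates the kinase Aurora A on the spindle, was at 42.7, 44.2 and 109 CPM in combination and 78.3, 93.6 and 69.8 CPM in control libraries. Kif20a, a motor of cytokinesis, was at 30.3, 26.5 and 51.5 CPM in combination and 51.0, 53.5 and 40.2 CPM in control libraries. Foxm1 was at 22.5, 20.4 and 59.96 CPM in combination, 50.2, 32.4 and 37.4 CPM in doxorubicin, and 49.96, 53.2 and 36.4 CPM in control libraries. In each of the last 4 genes combination replicate 3 lay within or above the control range, and replicates 1 and 2 lay below it.

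The second comparison set the combination against doxorubicin alone, so that the added agent was ADU-S100. It used the same combination libraries. No member passed the study thresholds (1.22% of all genes did), an unadjusted p under 0.05 (2.75% of all genes) or an adjusted p under 0.05 (0% of all genes, edgeR) in this comparison. DESeq2 gave 0 members at an unadjusted p under 0.05, against 3.32% of all genes, and limma-voom 7, against 9.03%. No member had every combination library below every doxorubicin library, against 2.63% of all genes. Log2 fold changes were negative for 16 of 21 S phase genes, with a median of -0.12, and 13 of 24 mitotic genes, with a median of -0.03, and the median of all genes tested was 0.07. The most negative was Ccne2 (-0.51 ± 0.39) and the most positive Cks2 (0.35 ± 0.24). Without combination replicate 3 the medians were -0.27 for S phase and -0.51 for mitotic genes, 43 of 45 members were negative and 21 had an unadjusted p under 0.05, against 8.57% of all genes. No member was then lower past the study thresholds, against 1.98% of all genes, and the lowest adjusted p by edgeR was 0.240. Leaving out doxorubicin replicate 3 gave 38 negative members (19 of 24 mitotic), and leaving out doxorubicin replicate 1 gave 29 (11 of 24 mitotic). Leaving out any other library of these groups moved the direction the other way. Of the 45 members, 13 were negative without combination replicate 2 (3 of 24 mitotic), 18 without combination replicate 1 (6 of 24 mitotic), and 17 without doxorubicin replicate 2 (10 of 24 mitotic). The direction in this comparison thus depended on which library was left out.

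The third comparison set doxorubicin alone against control. No member passed the study thresholds (0.452% of all genes did), and 1 of 45, E2f8, had an unadjusted p under 0.05, against 0.708% of all genes. At an unadjusted p under 0.05, DESeq2 gave 2 members, against 1.03% of all genes, and limma-voom 5, against 5.34%. Each tool gave 0 members at an adjusted p under 0.05. All 24 mitotic genes had negative log2 fold changes, with a median of -0.25, and 16 of 21 S phase genes did, with a median of -0.10, while the median of all genes tested was -0.01. Leaving out single libraries lowered this to 19 of 24 mitotic genes at the fewest, without doxorubicin replicate 3. For S phase genes the fewest was 11 of 21, without control replicate 3. The control libraries are those of the first comparison, so the 2 sets of negative values are not independent. Nusap1, a spindle microtubule protein, was the single member whose groups did not overlap, against 2.63% of all genes. It was at 48.5, 50.9 and 46.5 CPM in doxorubicin libraries and 62.3, 63.9 and 63.4 CPM in control libraries (log2 fold change -0.38 ± 0.25, unadjusted p = 0.17). Both groups were tight for Nusap1, while in the combination group it was at 36.8, 47.1 and 79.2 CPM. The model pools the spread over all 3 groups, so the combination spread enters this standard error and p-value. The standard error of Nusap1 was 0.25 for the combination versus control as well.

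Mki67 had the most negative fold change of doxorubicin versus control, -0.73 ± 0.33 (unadjusted p = 0.051, adjusted p = 1 by edgeR). Doxorubicin replicate 1, at 176 CPM, lay within the control range, and the other 2 doxorubicin libraries were below all control libraries. Without doxorubicin replicate 1 the log2 fold change was -1.17 (unadjusted p = 0.0026), which passed the study thresholds. Cenpf was next at -0.65 ± 0.52, with 28.9, 15.97 and 13.0 CPM in doxorubicin and 27.6, 39.2 and 23.7 CPM in control libraries, and it was at 10.5, 14.5 and 43.2 CPM in combination libraries. Cenpe, a kinetochore motor, had -0.50 ± 0.29, with 37.3, 27.6 and 20.7 CPM in doxorubicin and 40.9, 44.2 and 36.3 CPM in control libraries. In both genes doxorubicin replicate 1 was the high library of its group.

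These 3 genes have the longest transcripts of the set, and long transcripts as a class differed between libraries. The annotated transcripts of Mki67, Cenpf and Cenpe have 10061, 11130 and 7910 bases. In doxorubicin versus control, the median log2 fold change was -0.65 for these 3 and -0.09 for the 8 members under 2000 bases, while it was -0.16 for all 2118 tested genes of 5000 bases or more and 0.07 for 2454 genes under 2000 bases, both at a mean of 5 CPM or more. The level of long relative to short genes, centred over the libraries, was 0.48, -0.42 and -0.04 in doxorubicin libraries and 0.57, 0.35 and -0.25 in control libraries on the log2 scale. Doxorubicin replicate 1 was therefore the highest of its group in long genes as a class as well as in Mki67. With the trend on length removed from each library, an alternative added after the data were seen, Mki67 had a log2 fold change of -0.57 (unadjusted p = 0.046) in doxorubicin versus control and -0.36 (unadjusted p = 0.18) in the combination versus control.

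Doxorubicin replicate 2 had the highest level of the 9 libraries for 7 members, 6 of them S phase genes. Among them was Ccne1, cyclin E1, at 28.2 CPM there, against 12.6 and 13.4 CPM in the other doxorubicin libraries and 18.7, 12.8 and 21.5 CPM in control libraries. The S phase mean of that library, 5.90, was the highest of the 9, and its mitotic mean, 5.57, was below all control libraries.

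Further genes of the pathway were mostly negative too. Of 40 further mitotic genes, all measured, 38 had negative log2 fold changes in the combination versus control, with a median of -0.30. At an unadjusted p under 0.05, edgeR called 0 of them, against 4.44% of all genes. For doxorubicin against control all 40 were negative, with a median of -0.29. There 1 had an unadjusted p under 0.05, against 0.708% of all genes. That gene was Ckap2l, a spindle protein, at 35.2, 28.8 and 23.6 CPM in doxorubicin and 43.7, 41.3 and 40.4 CPM in control libraries (log2 fold change -0.52 ± 0.22, unadjusted p = 0.043). Every doxorubicin library was below every control library for 6 of the 40, against 2.63% of all genes and 1 of 24 mitotic members. For the combination versus control this held for 0 of the 40, against 3.95% of all genes. Of 30 further S phase genes, 19 were negative in the combination versus control, with a median of -0.10. Among the S phase members 17 of 21 were, with a median of -0.21. Clspn, a mediator of the replication checkpoint, was the gene of these at an unadjusted p under 0.05, 1 of 30 against 4.44% of all genes. It was at 12.2, 11.8 and 19.5 CPM in combination and 24.0, 19.1 and 22.8 CPM in control libraries (log2 fold change -0.60 ± 0.26, unadjusted p = 0.044 by edgeR). None of these genes passed the study thresholds or an adjusted p under 0.05 in any of the 3 comparisons by edgeR.

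Regulators upstream of S phase gave no common direction. Of 7 measured G1 cyclins and kinases, 4 were positive in the combination versus control with a median log2 fold change of 0.02, and the D cyclins that open G1 had -0.01 ± 0.28 for Ccnd1, 0.02 ± 0.37 for Ccnd2 and 0.33 ± 0.29 for Ccnd3. Myc, a driver of growth and cell cycle entry, was at 63.3, 51.6 and 229 CPM in combination, 92.9, 52.4 and 85.3 CPM in doxorubicin, and 61.0, 126 and 65.5 CPM in control libraries. It was highest in combination replicate 3 and second in control replicate 2, the libraries richest in fibroblast and sarcoma markers. Of 10 CDK inhibitors and pocket proteins, 6 were negative in the combination versus control. By edgeR 2 had an unadjusted p under 0.05, against 4.44% of all genes. They were Cdkn1a, above control, and Rbl1, the pocket protein p107, below it. Rbl1 was at 28.6, 46.0 and 44.5 CPM in combination, 46.5, 46.3 and 45.2 CPM in doxorubicin, and 67.2, 54.6 and 49.2 CPM in control libraries. All combination and all doxorubicin libraries were below all control libraries for Rbl1 (log2 fold changes -0.52 ± 0.21 and -0.31 ± 0.21). In this list, 2 of 10 genes had every combination library below every control library, against 3.95% of all genes. For doxorubicin libraries it was 1 of 10, against 2.63% of all genes.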

How the data were processed

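RNA from CD45+ cells of WEHI-164 grafts was sequenced with paired 100-base reads from stranded mRNA libraries. The authors' tools were Trimmomatic (0.38) for trimming, HISAT2 (2.1.0) for alignment on mm10, and StringTie (2.1.3b) for gene counts. The strand setting of the counting is not given in the sources used here. The deposited values are raw counts, whole numbers per gene and library, and 0 value columns were left out. Members and gene lists were chosen with earlier results of these data known, and grouped by role.

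Counts were tested with edgeR (4.0.16, quasi-likelihood, TMM, filterByExpr, R 4.3.3) in a single model of 3 groups, 9 libraries and 3 contrasts, with two-sided p-values adjusted by Benjamini-Hochberg over 16373 genes. The study thresholds asked for more than a 2-fold difference and p under 0.05 before adjustment. The study tested with DESeq2, whereas the thresholds were applied here to edgeR unless another tool is named. In the combination versus control, 239 genes were higher and 116 lower past them by edgeR, and 272 and 125 by DESeq2. CPM used TMM library sizes, and log2 CPM a prior count of 2. Total counts were 50110494 to 69456603, at which counting error was small beside replicate spread (common biological coefficient of variation 0.457). Named members are Mki67, Pcna, the Mcm genes, members past the thresholds and up to 2 members per role with the smallest p. Of the wider lists, Top2a, Cdkn1a, Ccnd1, Ccnd2, Ccnd3, Myc and genes with the smallest p are named. Ccnb1, Ccne1 and Cdc20 were named after their values were seen. Alternatives were RLE scaling, DESeq2 (1.42.0), limma-voom with quality weights (3.58.1), other filters, a model of 2 groups, a replicate block, mitochondrially encoded with haemoglobin genes left out, and each library left out. A further 4, on fibroblast markers and transcript length, were chosen after seeing the data. Promoters came from RefSeq (GRCm38.p6).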

Additional observations from a re-analysis of the deposited data

How the results depend on the processing

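No member passed an adjusted p under 0.05 under any setting run. In the main edgeR fit of all libraries no member passed the study thresholds either, so that fit had no called value whose sign could change. Signs of members that were not called did change. In the combination versus doxorubicin, 29 members were negative with all libraries. With single libraries left out this ran from 13 without combination replicate 2 to 43 without combination replicate 3. In doxorubicin versus control, 40 members were negative with all libraries. This ran from 32 without control replicate 3 to 44 without doxorubicin replicate 2. It was 29 without the library richest in fibroblast markers in each group. Without all libraries above a marker mean of 4, which left 1 doxorubicin library, it was 14. Against control, the median log2 fold change of the combination stayed negative under all 18 alternatives, from -0.51 to -0.074 for S phase and from -0.77 to -0.12 for mitotic genes, as did that of doxorubicin for mitotic genes (-0.35 to -0.03).

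In the combination versus control, 624 genes and 2 members (Ccne2 and Cenpf) passed the study thresholds with limma-voom, and 579 genes with no filter. DESeq2 called 27 genes and a model of the 2 groups 1 gene at an adjusted p under 0.05. With single libraries left out the count ran from 257 genes without combination replicate 1 to 895 without combination replicate 3, and from 0 to 5 members, with Ccne2 (-1.08) called without control replicate 3.

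In the combination versus doxorubicin, 573 genes passed with limma-voom, 399 with no filter and 123 with a filter at CPM 1, and DESeq2 called 9. With single libraries left out the count ran from 154 to 678 genes, the highest without combination replicate 3, and the medians from -0.27 to 0.044 for S phase and from -0.51 to 0.15 for mitotic genes.

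In doxorubicin versus control, 310 genes and 2 members (Cenpf and Mki67) passed with limma-voom, 213 genes with no filter, 38 with a filter at CPM 1 and 154 with the fibroblast marker mean as a covariate, and DESeq2 called 2. With single libraries left out, 44 to 211 genes and 0 to 1 members passed, the extremes without doxorubicin replicate 3 and replicate 1. Without control replicate 1 the count was 169. Genes at an adjusted p under 0.05 ran from 0 to 1. The medians ran from -0.27 to -0.029 for S phase and from -0.35 to -0.16 for mitotic genes.

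Without the library richest in fibroblast markers in each group, the combination versus control had 709 genes, 3 members and a mitotic median of -0.70, the combination versus doxorubicin 679 genes and medians of -0.44 for S phase and -0.43 for mitotic genes, and doxorubicin versus control 298 genes and 1 member. Without the 4 libraries above a marker mean of 4, the combination versus control had 809 genes, 3 members, 1 gene at an adjusted p under 0.05 and medians of -0.49 for S phase and -0.72 for mitotic genes. The combination versus doxorubicin then had 562 genes, 4 members, 1 gene at an adjusted p under 0.05 and medians of -0.68 for S phase and -0.60 for mitotic genes, and doxorubicin versus control had 293 genes, 1 member and an S phase median of 0.22. That fit left 1 doxorubicin library, assumed to vary like the others. Both fits left out combination replicate 3, doxorubicin replicate 1 and control replicate 2. The second also left out doxorubicin replicate 3. In the comparisons with the combination, these changes cannot be told apart from leaving out combination replicate 3 alone. The cause of these changes was not tested.

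The replicate numbers did not pair the libraries (r from -0.60 to 0.38 between same-numbered libraries). With the replicate block, 265 genes passed in the combination versus control, 133 in the combination versus doxorubicin and 54 in doxorubicin versus control, with 0 members in each. At these depths counting error was small for all members.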
